A study of Homo sapiens with 9 samples.

Results

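The G1 cell cycle genes described here are the 3 D cyclins (CCND1, CCND2, CCND3), their kinases CDK4 and CDK6, the CIP/KIP inhibitors CDKN1A (p21), CDKN1B (p27) and CDKN1C (p57), the pocket protein gene RBL2 (p130) and MYC. They were chosen by symbol, with earlier results of these data known, and make up 10 of the 61209 genes in the count table. All 10 passed the filter on low counts and were tested with the 16976 genes kept. RNA was sequenced from GIST-T1 (T1), a human gastrointestinal stromal tumor line with the KIT exon 11 deletion del560-79 that is sensitive to imatinib. A stromal tumor of this kind is driven by the receptor tyrosine kinase KIT, which imatinib inhibits.

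There were 3 groups of 3 libraries, all from this 1 line and all transfected with siRNA by a lipid reagent and harvested 48 h later. In siNC (S1, S2, S3) the siRNA had no target, in siERRα (S4, S5, S6) it targeted ESRRA, which encodes estrogen-related receptor alpha (ERRα), and in siNC + imatinib (S16, S17, S18) cells with the non-target siRNA received 50 nM imatinib. Whether each group's 3 libraries stem from separate cultures is not stated in the labels, so p-values here measure the spread between libraries, which may be technical. Both treated groups were compared with the same 3 siNC libraries.

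D cyclins bind CDK4 and CDK6 after growth factor signals and start the phosphorylation of the retinoblastoma protein family (RB1, RBL1, RBL2), which releases E2F transcription factors and lets cells enter S phase. CIP/KIP proteins bind cyclin and CDK complexes and restrain CDK2 above all. RBL2 with E2F4 and the MuvB proteins represses cell cycle genes in resting cells, and MYC, a transcription factor that pairs with MAX on the E-box CACGTG, drives growth and ribosome synthesis. KIT, acting through the ERK and AKT pathways, is a known upstream input to cyclin D1, p27 and MYC, and CCND1 and MYC are also textbook targets of β-catenin.

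Library totals ran from 37527236 to 49363002 counts. ESRRA stood at 40.7, 44.7 and 40.9 CPM, the TMM-scaled count relative to library size, in siNC, at 1.41, 0.757 and 1.34 CPM in siERRα and at 30.4, 32.0 and 35.6 CPM with imatinib, so the labelled target was low in all 3 knockdown libraries. The 6 GIST identity markers (KIT, ANO1, ETV1, PRKCQ, PDGFRA, CD34) summed to 3330 to 3719 CPM over the 9 libraries, none at 0. Leukocyte markers summed to 0.412 to 1.05 CPM and endothelial markers to 1.24 to 3.04 CPM. Epithelial markers, nearly all of it the keratin gene KRT18, summed to 302 to 315 CPM in siNC, 279.6 to 303 in siERRα and 193 to 223 with imatinib, and the mitochondrial share of counts was 0.925% ± 0.0726 in siNC, 0.989% ± 0.0433 in siERRα and 1.52% ± 0.0359 with imatinib (SD, n = 3 each). KRT19, PTPRC and LYZ were at 0 in at least 1 group. Their part in the results was not tested. S5 stood farthest from its group (chi-square per degree of freedom 16.5 and 14.0 from S4 and S6, which differed by 4.35), and S16 and S17 differed by 14.7.

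After ERRα knockdown 6 of the 10 genes fell and 2 rose (adjusted p under 0.05 in edgeR's quasi-likelihood test across all genes). CCND1, CDK6, CDKN1A, CDKN1C, RBL2 and MYC were the lower ones, CCND3 and CDKN1B the higher ones, and CCND2 and CDK4 did not pass. Over all genes tested 12.6% were called lower and 11.4% higher. With the study's added threshold for a differentially expressed gene (DEG), 0.5 or more in absolute log2 fold change, CDK6, CCND1, RBL2 and MYC remained, where 7.26% of all genes were DEGs. The median log2 fold change was −0.30 over the 10 genes and 0.0085 over all genes. Without S5, 6 of the 10 passed, since CDKN1A and CDKN1C no longer did. All 10 genes were chosen with earlier results of these data known, so no count of them beside the shares of all genes is independent evidence. The study picked CCND1, CDK6 and MYC out of these same libraries, so their calls are not independent evidence either. For CCND1 it also reported lower mRNA by quantitative PCR and lower cyclin D1 protein, in T1 and in another GIST line.

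Imatinib gave another pattern of calls. CCND1 and CDKN1A fell, CDKN1B, CDKN1C and RBL2 rose, and the other 5 genes did not pass, against 20.3% of all genes called lower and 21.4% higher. Of the 5 genes called, CCND1 and CDKN1A were DEGs, as were 17.6% of all genes. The median was 0.04 over the 10 genes and 0.0023 over all. In the direct comparison of siERRα with siNC + imatinib, which tests whether both treatments differed in effect, CDK6, CDKN1C, RBL2 and MYC were lower after knockdown and CCND2, CCND3 and CDKN1A higher (26.6% of all genes called lower, 25.6% higher). The 4 lower genes were DEGs, as were 26.3% of all genes, and the median was 0.04 against −0.0045 over all. CCND1 and CDKN1B, which moved in the same direction in both treatments, did not pass in that comparison.

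**Figure D1:**
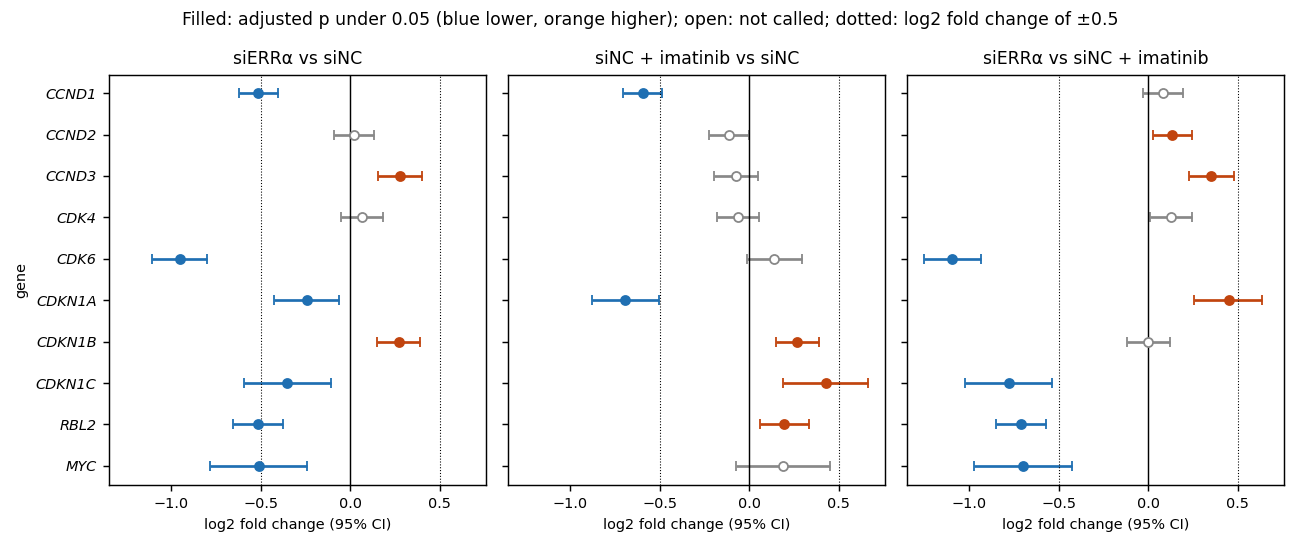
Log2 fold change of each gene (x axis, with its 95% confidence interval from edgeR) in the 3 comparisons, with genes on the y axis. CCND1 is lower in both treated groups against siNC, CDK6 and MYC are lower only in the left and right panels, and CDKN1C and RBL2 lie on opposite sides of 0 in the left and middle panels.

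**Figure D2:**
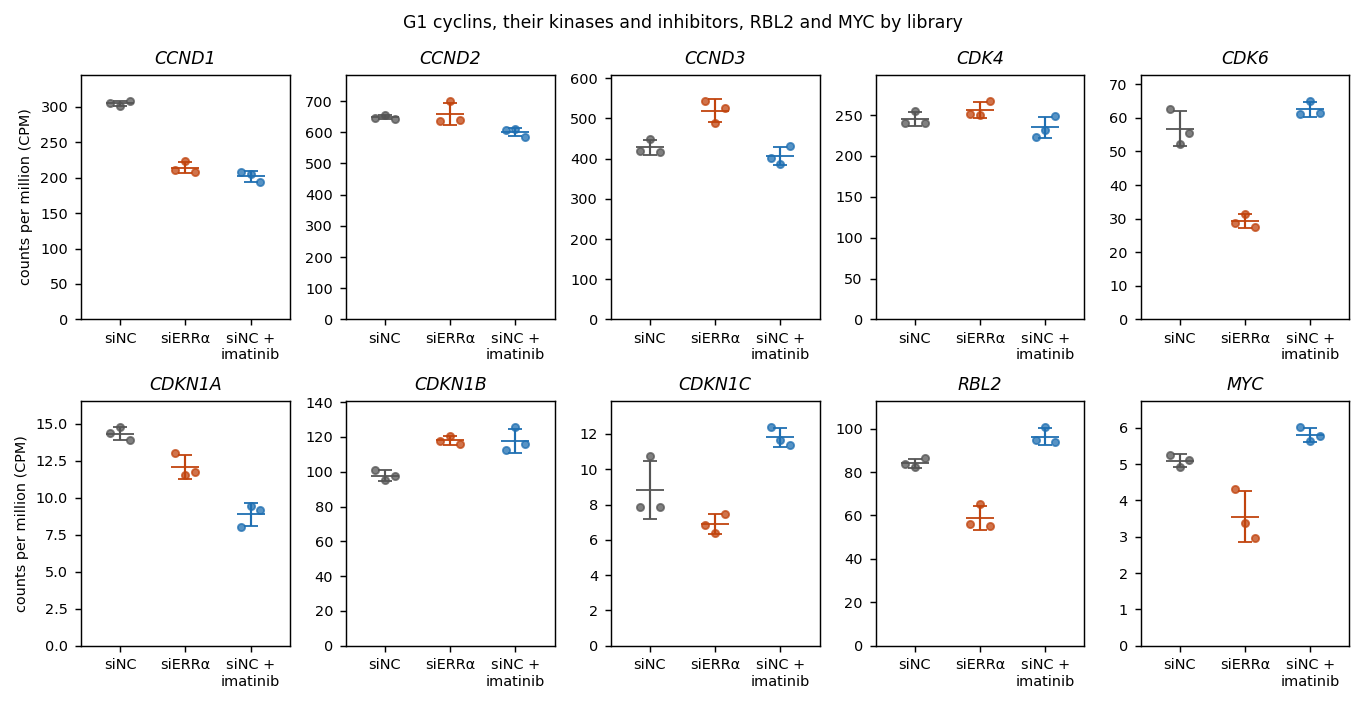
CPM (y axis, from 0) of each gene in the 9 libraries, 1 point per library, with the mean and SD of each group of 3. CDK6 lies between 27.6 and 31.5 CPM in siERRα and at 52.2 CPM or more in the other 6 libraries, and CCND1 lies at 302 CPM or more in siNC and at 223 CPM or less in the treated libraries.

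Among the D cyclins, CCND1 fell in both treatments, CCND3 rose after knockdown and CCND2 did not pass against siNC. CCND1 encodes cyclin D1, the D cyclin most closely tied to growth factor and ERK signals, and lies at chr11:69641156-69654474 (GRCh38, plus strand). It stood at 305, 302 and 309 CPM in siNC, at 211, 223 and 208 CPM in siERRα and at 207, 205 and 193 CPM with imatinib. All siNC libraries were above all treated ones, and the 2 treated groups did not overlap, though by a narrow margin. The log2 fold change was −0.51 after knockdown (standard error 0.0522, adjusted p = 7.89e-07 in edgeR) and −0.59 with imatinib (adjusted p = 3.84e-08), that is 70.1% and 66.2% of the siNC mean. Knockdown and imatinib differed by 0.08 (95% confidence interval −0.03 to 0.19, adjusted p = 0.198 in edgeR). In bulk RNA a lower level in each cell and fewer cells with the transcript cannot be told apart, here and for each gene that follows.

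The exons of CCND1 overlap those of LTO1 on the opposite strand by 497 bases. The sources used here give no strand setting for the counting. LTO1 summed to 2128, 2264 and 1290 counts over the 3 libraries of siNC, siERRα and siNC + imatinib, against 7080 to 15545 counts of CCND1 in a single library.

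CCND2, which encodes cyclin D2 (chr12:4269771-4305353, plus strand), passed in neither comparison with siNC. It stood at 646, 657 and 644 CPM in siNC, at 637, 701 and 639 in siERRα and at 607, 609.7 and 585 with imatinib. The high knockdown library is S5, and without it the difference from siNC was −0.03 in place of 0.02 (95% confidence interval with all libraries −0.09 to 0.13, adjusted p = 0.812 in edgeR). All imatinib libraries lay under all others, with a log2 fold change of −0.11 against siNC that did not pass (interval −0.22 to −0.00, adjusted p = 0.0963 in edgeR). Against imatinib, siERRα was higher by 0.13 (adjusted p = 0.0384 in edgeR), a call lost without S5 (0.09, adjusted p = 0.180) and in 4 other leave-one-out fits. Its exons share 999 bases with ENSG00000285901 on the same strand, a gene with 0 counts in all 9 libraries, and 162 bases with CCND2-AS1 on the opposite strand, with 228 to 297 counts summed over each group, which bears on its level per kb.

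CCND3, the gene of cyclin D3 (chr6:41934934-42050357, minus strand), moved against CCND1 after knockdown. It stood at 420.0, 449.8 and 415 CPM in siNC and at 544, 488 and 527 CPM in siERRα, so that the groups did not overlap, and at 401, 387 and 432 CPM with imatinib, within and below the siNC range. It rose by 0.28 after knockdown (standard error 0.0588, adjusted p = 0.00173 in edgeR), and the difference with imatinib was −0.07 (interval −0.20 to 0.05, adjusted p = 0.330). Knockdown exceeded imatinib by 0.35 (adjusted p = 5.14e-05 in edgeR).

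Transcript levels can be set beside each other only per length, so CPM was divided by the kilobases of each canonical transcript. On this scale CCND3 led in siNC at 212 ± 9.22 CPM per kb (SD, n = 3), followed by CDK4 at 131 ± 4.51, CCND2 at 99.96 ± 1.06, CCND1 at 72.0 ± 0.811, CDKN1B at 40.6 ± 1.29 and RBL2 at 17.3 ± 0.426. CDKN1A (6.77 ± 0.210), CDKN1C (4.97 ± 0.939) and CDK6 (4.87 ± 0.451) came next, of which CDKN1C and CDK6 did not differ beyond their spread, and MYC was last at 1.37 ± 0.0465 CPM per kb. Per kb of all annotated exons the order at the top was another: CCND2 stood at 81.2, CDK4 at 79.2, CCND3 at 74.4 and CCND1 at 64.1 CPM per kb in siNC, so the order among these 4 depends on the length used. Lower down the length mattered too: on that scale CDKN1B (10.57) and RBL2 (10.37) were nearly level, and CDK6 (4.64) stood above CDKN1C (3.555). Exons shared with genes on the opposite strand, as those of CDK4 with TSPAN31, may bear on these levels as well.

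**Figure D3:**
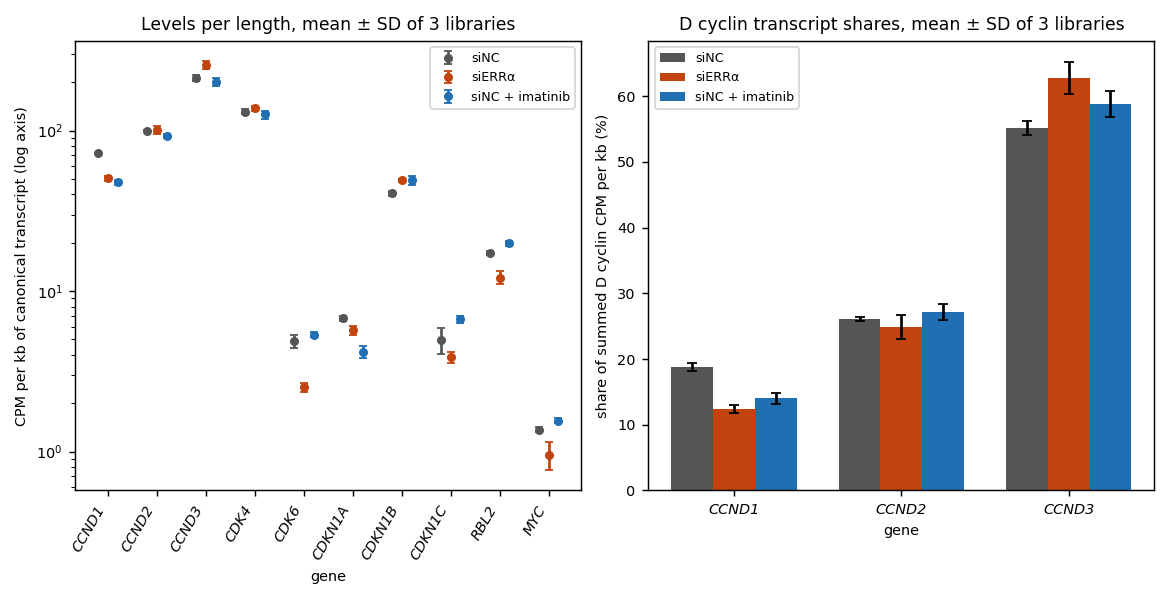
Left, CPM per kb of canonical transcript (log axis) of each gene, mean and SD of the 3 libraries of each group. Right, the share of each D cyclin in the summed D cyclin CPM per kb (%, from 0), mean and SD, where CCND1 falls from 18.8% in siNC to 12.4% in siERRα and 14.0% with imatinib and CCND3 rises from 55.1% to 62.8% and 58.9%.

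As shares of the summed D cyclin CPM per kb, CCND1 took 18.8% ± 0.658 in siNC, 12.4% ± 0.639 in siERRα and 14.0% ± 0.798 with imatinib (SD, n = 3 each). The siNC libraries lay above all treated libraries (exact permutation test, two-sided p = 0.1 in both cases, the smallest that 3 against 3 allows). The share of CCND3 rose from 55.1% ± 1.02 to 62.8% ± 2.43 and 58.9% ± 2.01 without overlap with siNC (exact p = 0.1 in both), and that of CCND2 was 26.1% ± 0.369, 24.9% ± 1.79 and 27.2% ± 1.22. The shares are not independent of each other: with imatinib the CPM of CCND3 was not above siNC (log2 fold change −0.07), so its higher share there restates the lower CCND1 and CCND2. With all exons as the length CCND1 took 29.2%, 20.6% and 22.6%, so the fall held on that scale too.

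The kinase genes behaved differently from each other. CDK6 (chr7:92604921-92836573, minus strand) had the largest fold change of the 10 genes after knockdown and did not pass the test with imatinib, while CDK4 (chr12:57747727-57756013, minus strand) passed in none of the 3 comparisons. CDK6 stood at 62.5, 52.2 and 55.5 CPM in siNC, at 28.8, 31.5 and 27.6 CPM in siERRα and at 61.1, 65.1 and 61.5 CPM with imatinib. Every knockdown library lay far below every other library, and siNC and imatinib overlapped. The log2 fold change after knockdown was −0.95 (standard error 0.0744, adjusted p = 2.43e-08 in edgeR), or 51.6% of siNC. With imatinib it was 0.14 (interval −0.01 to 0.29, adjusted p = 0.133 in edgeR), which passed without S1 (0.21, adjusted p = 0.0399).

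CDK4 stood at 239.9, 255 and 241 CPM in siNC, at 251, 250.5 and 268 in siERRα and at 224, 232 and 249.5 with imatinib. Both treated groups overlapped siNC. The log2 fold change was 0.06 after knockdown (interval −0.05 to 0.18, adjusted p = 0.457 in edgeR) and −0.06 with imatinib (interval −0.18 to 0.06, adjusted p = 0.411), and knockdown exceeded imatinib by 0.13 (adjusted p = 0.0685), past the threshold only without S5 (0.0494) or S18 (0.0334). Its exons overlap those of TSPAN31 on the opposite strand by 1369 bases, a gene with 2212 to 2679 counts summed over each group. Since the strand setting is not given, this overlap may bear on the level of CDK4 per kb and on the share of CDK6 that follows. CDK6 made up 3.58% ± 0.414 of the summed CDK4 and CDK6 CPM per kb in siNC, 1.80% ± 0.173 in siERRα and 4.09% ± 0.267 with imatinib (SD, n = 3 each; exact permutation p = 0.1 for siERRα against each of the others, the smallest possible).

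A 7-base sequence, ATGTTCT, came up in an earlier look at these data as 1 that genes lower after knockdown share in their 3′ UTRs, so the members' canonical transcripts were searched for it downstream of the stop codon. CDK6 holds 2 copies, CCND2 holds 1 and the other 8 genes hold none. They are shown here with their surroundings because CDK6 is the member that fell most, with the heptamer in capitals, 5′ to 3′ on the strand of the gene (GRCh38). The first copy in CDK6 lies in exon 8 at chr7:92613832-92613861 (minus strand), the other at chr7:92609935-92609964 in the same exon, and the copy in CCND2 in exon 5 at chr12:4300683-4300712 (plus strand).
CDK6 first copy: cagggtcacatATGTTCTctaatgcagtcc
CDK6 second copy: tagtctctataATGTTCTgtaacttcaata
CCND2: tcctgggtttcATGTTCTgtgacatcctgc

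The 3′ UTRs differ much in length, 10219 bases in CDK6 and 5344 in CCND2. The heptamer was picked on these libraries, so the shares that follow restate that choice, and they are not matched for the length of the 3′ UTR. After knockdown 30.3% of the 2418 genes with the heptamer were lower, with a median log2 fold change of −0.10, against 12.0% and 0.03 for the 10322 genes without it. With imatinib the shares called lower were 26.0% and 23.0%. Its part in the result of CDK6 was not tested, and the sources used here give no siRNA sequence.

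The CIP/KIP inhibitors did not move as a group. CDKN1B rose in both treatments, CDKN1C fell after knockdown and rose with imatinib, and CDKN1A was lower in both. CDKN1B encodes p27, which holds cells in G1 and is a classic FOXO target (chr12:12685498-12722369, plus strand). It stood at 101, 94.98 and 97.4 CPM in siNC, at 118, 120.4 and 116 in siERRα and at 112, 126 and 116 with imatinib, so both treated groups lay above siNC and overlapped each other. The log2 fold change was 0.27 after knockdown (standard error 0.0574, adjusted p = 0.00178 in edgeR) and 0.27 with imatinib (adjusted p = 0.000897). The difference between both treatments was 0.00 (interval −0.12 to 0.12, adjusted p = 0.993 in edgeR).

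CDKN1A, the p21 gene and a main target of p53 (chr6:36676460-36687337, plus strand), was lower with imatinib. It stood at 14.3, 14.8 and 13.9 CPM in siNC, at 13.0, 11.5 and 11.7 in siERRα and at 8.0, 9.43 and 9.15 with imatinib, from 295 to 699 counts per library. The 3 groups did not overlap and followed each other in that order. With imatinib it fell by 0.69 on the log2 scale (standard error 0.0898, adjusted p = 5e-06 in edgeR), to 61.9% of siNC. After knockdown the change was −0.24 with an adjusted p of 0.0473 in edgeR, a call lost in DESeq2 (0.0599), without the low-count filter (0.091) and without any 1 of S1, S2, S3, S5, S6 or S18 (0.0523 to 0.120). Knockdown exceeded imatinib by 0.45 (adjusted p = 0.000364 in edgeR).

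CDKN1C, an imprinted gene whose product p57 marks cells that leave the cycle (chr11:2883213-2885775, minus strand), stood at 7.85, 10.7 and 7.86 CPM in siNC, at 6.85, 6.37 and 7.46 in siERRα and at 12.4, 11.7 and 11.4 with imatinib. The imatinib libraries were the highest and the knockdown libraries the lowest, with S2 as the high library of siNC. It rose by 0.43 with imatinib (standard error 0.114, adjusted p = 0.00517 in edgeR) and was lower in siERRα than with imatinib, with a log2 fold change of −0.78 (adjusted p = 1.43e-05 in edgeR). After knockdown the change from siNC was −0.35 (adjusted p = 0.0344 in edgeR). That call was lost without S2 (−0.20, adjusted p = 0.223), S4 (0.0836) or S5 (0.0816), in limma-voom (0.0509) and in a fit of the 6 libraries alone (0.0516).

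RBL2 (chr16:53433977-53491648, plus strand) fell after knockdown and rose a little with imatinib. It stood at 83.7, 82.2 and 86.3 CPM in siNC, at 56.1, 65.3 and 55.3 in siERRα and at 94.6, 101 and 93.7 with imatinib, 3 groups with no overlap. The log2 fold change was −0.51 after knockdown (standard error 0.0666, adjusted p = 1.36e-05 in edgeR), or 70.1% of siNC. With imatinib it was 0.20 (adjusted p = 0.0225 in edgeR), a call lost without S1 (0.0657), S2 (0.0598) or S17 (0.0758), and knockdown and imatinib differed by −0.71 (adjusted p = 4.44e-08). RBL2 exons overlap 609 bases of AKTIP on the opposite strand, a gene with 3365 to 4150 counts summed over each group, while RBL2 had 2150 to 4347 counts per library.

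MYC had the lowest level per kb of the 10 genes. In CPM it stood at 5.26, 4.91 and 5.10 CPM in siNC, at 4.32, 3.39 and 2.96 in siERRα and at 6.02, 5.63 and 5.77 with imatinib, from 115 to 257 counts per library. The 3 groups did not overlap, with knockdown at the bottom and imatinib at the top. The log2 fold change after knockdown was −0.51 (standard error 0.130, adjusted p = 0.00685 in edgeR), to 69.8% of siNC, and it was −0.70 against imatinib (adjusted p = 0.000165). With imatinib it was 0.19 above siNC, which did not pass (interval −0.08 to 0.45, adjusted p = 0.249 in edgeR). CCND1, RBL2 and MYC lay close to the DEG threshold after knockdown: over 17 alternative fits the log2 fold change ranged from −0.54 to −0.50 for CCND1, from −0.60 to −0.48 for RBL2 and from −0.68 to −0.41 for MYC, with an adjusted p under 0.05 in each.

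The wider MYC network was read from a list of 12 partners and relatives. After knockdown MYCN rose by 0.37 on the log2 scale, MAX by 0.27 and MLXIP by 0.39, MXD1, a repressor that competes for MAX, had a log2 fold change of −0.62, and the other 8 did not pass (median −0.0078). MYCN, the paralog best known from neuroblastoma, stood at 70.9 ± 4.52 in siNC, 91.7 ± 6.41 in siERRα and 29.6 ± 2.40 with imatinib (SD, n = 3 each). MYCN fell with imatinib by 1.26 on the log2 scale (adjusted p = 2.35e-10 in edgeR), where MYC did not pass. In total 3 of the 12 fell with imatinib, MYCN, MXD1 and MLX (−0.43), and 6 rose, among them the repressor genes MXD3 (0.94) and MXD4 (0.62). Over all genes 12.6% were called lower and 11.4% higher after knockdown, and 20.3% and 21.4% with imatinib. The counts of the MYC-responsive list below stand against the same shares.

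Genes that MYC proteins are known to drive, 22 nucleolar and biosynthesis genes, were called only as higher after knockdown in the main fit. Of the 22, 9 rose and the other 13 did not pass, with a median of 0.13. Examples are ODC1, the first enzyme of polyamine synthesis (0.31), the ribosome assembly genes PES1 (0.43) and NOLC1 (0.28), and the nucleolar GTPase gene GNL3 (0.34). The count of higher genes was 5 without S1 and 4 without S3. The count of 0 lower genes did not hold in 6 of the alternative fits, among them limma-voom, which called 1 lower. With imatinib 20 of the 22 fell, with a median of −0.39: RRS1 had a log2 fold change of −0.97, RRP12 of −0.84, ODC1 of −0.66 and WDR12 of −0.64. MYC itself fell after knockdown, and with imatinib it stood at 5.63 to 6.02 CPM, above its siNC libraries, without passing the test. MYCN, at 70.9 CPM in siNC, rose by 0.37 after knockdown and fell by 1.26 with imatinib on the log2 scale. How MYC or MYCN relates to the 22 genes was not tested.

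The promoters of 6 of the 10 genes are in the RefSeq table of promoter windows (GRCh38.p14), in 10 windows of 300 bases around a start site. CCND1, CCND2, CDKN1C and MYC have no entry. They were searched on both strands for the E-box CACGTG, the ERR half-site AAGGTCA, the FOXO motif GTAAACA and the TCF/LEF motif CTTTGAT. The E-box was found 3 times in the window of CDK4 and 1 time in 1 of 2 windows of CDK6, and GTAAACA 1 time in 1 of 3 windows of CCND3. AAGGTCA and CTTTGAT were in none of the 10 windows. Of all 35116 windows 7.26% hold the E-box, 3.92% AAGGTCA, 3.42% GTAAACA and 2.62% CTTTGAT, and 33 windows hold 3 E-boxes or more. The window of CDK4 at chr12:57752261-57752560 (minus strand) is shown because it holds the most E-boxes of the 10 windows. They lie at −216, −196 and −101 from the start site and are in capitals. Which proteins bind them in these cells was not tested.
CDK4 promoter: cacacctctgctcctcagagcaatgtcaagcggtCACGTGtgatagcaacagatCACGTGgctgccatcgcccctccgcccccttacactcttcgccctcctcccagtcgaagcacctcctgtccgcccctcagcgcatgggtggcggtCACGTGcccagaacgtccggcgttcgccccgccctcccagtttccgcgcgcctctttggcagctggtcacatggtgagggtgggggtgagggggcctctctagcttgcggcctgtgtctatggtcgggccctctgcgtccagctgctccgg

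The counts of the lists that follow stand against 12.6% of all genes called lower and 11.4% higher after knockdown. With imatinib these shares were 20.3% and 21.4%, and in siERRα against siNC + imatinib 26.6% and 25.6%. Around the members, the module of cyclins E and A with CDK2, which acts after the D cyclins, had these values. CCNE2 stood at 29.1 ± 1.43 CPM in siNC, 52.7 ± 4.71 in siERRα and 56.0 ± 1.14 with imatinib (SD, n = 3 each), a rise by 0.85 and 0.94 on the log2 scale. CCNE1 (0.16) and CCNA2 (0.30) rose too after knockdown, 3 of 8 in all (median 0.11). With imatinib CCNA2 had a log2 fold change of −0.28 and CDK2 rose by 0.33. CCNH and CDK7, of the CDK-activating kinase, were lower (−0.67 and −0.25), which gave 2 higher and 3 lower of 8 (median −0.11), where 21.4% of all genes were called higher and 20.3% lower.

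The INK4 inhibitors, which act on CDK4 and CDK6 alone, are CDKN2A, CDKN2B, CDKN2C and CDKN2D. After knockdown 0 of the 4 passed in edgeR, 0 also at an unadjusted p under 0.05 and 0 in DESeq2 and limma-voom, with log2 fold changes of −0.04, 0.15, −0.00 and −0.01. With imatinib CDKN2C (p18) rose by 0.49, from 71.2 ± 3.56 CPM in siNC to 100.3 ± 1.58 CPM (SD, n = 3 each), and CDKN2B was lower (−0.35), a call lost without S1, S3 or S18. CDKN2A stood at 163 ± 15.1 CPM in siNC, 158 ± 19.4 in siERRα and 148 ± 10.6 with imatinib (SD, n = 3 each).

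Of 8 genes for the SCF ubiquitin ligases that turn over cyclins and p27, SKP2 (−0.20) and SKP1 (−0.55) fell after knockdown and the other 6 did not pass (median −0.05). SKP2 is the F-box protein that recognises p27. With imatinib SKP2 was at −0.02 and did not pass, CUL1 fell (−0.22; not without S1 or S18) and FBXO4 rose (0.49), with a median of −0.08.

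Among 17 RB family, E2F and MuvB genes, 6 rose and 1 fell after knockdown (2 fell without S5; median 0.08). E2F1 rose by 0.36, E2F3 by 0.32, E2F5 by 0.45 and E2F7 by 0.63, and E2F2 had a log2 fold change of −0.26. RB1 stood at 157 ± 7.57, 149 ± 11.0 and 147 ± 8.03 CPM in siNC, siERRα and siNC + imatinib (SD, n = 3 each) and RBL1 at 38.5 ± 0.439, 34.9 ± 3.93 and 43.3 ± 1.77 CPM. With imatinib the log2 fold change of RBL1 was 0.17 (adjusted p = 0.0826 in edgeR), near the 0.20 of RBL2, whose call was lost without S1, S2 or S17. After knockdown it was −0.14 for RBL1 and −0.51 for RBL2, and differences between these genes were not tested. RB1 and RBL1 were named after their values were seen. With imatinib 6 of the 17 rose and 3 fell (median 0.08), against 21.4% and 20.3% of all genes, with E2F1 at 0.87, E2F2 at 0.67 and E2F7 at 0.57 and E2F5 at −0.63.

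The replication genes that E2F factors switch on at the G1/S boundary differed between both treatments. With imatinib 25 of 28 rose and 3 did not pass, with a median of 0.36. TK1, thymidine kinase, rose by 0.80, from 682 ± 58.8 CPM in siNC to 1185 ± 24.8 CPM (SD, n = 3 each), and MCM3 and MCM4, of the replicative helicase, and PCNA rose by 0.53 to 0.54. After knockdown 7 fell, 1 rose and 20 did not pass, with a median of 0.0057. The count of 1 moved in 9 alternative fits. Among them, it was 2 in DESeq2, in limma-voom and without S2, S5, S6 or S17, and 3 without S16. UHRF1 (−0.69), GINS1 (−0.66), TYMS (−0.41) and MCM3 (−0.35) had the smallest p. Directly compared, 24 of 28 were lower in siERRα than with imatinib (median −0.38).

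Mitosis and proliferation genes differed between both treatments as well. Directly compared, 10 of 13 were higher in siERRα than with imatinib and 1 was lower (median 0.34). After knockdown 6 of 13 rose and 7 did not pass (median 0.22), with BIRC5 at 0.32, MYBL2 at 0.28, PLK1 at 0.27 and CCNB2 at 0.24. The count was 3 without S3. With imatinib 4 fell and 2 rose (median −0.09): CCNB1 fell by 0.98 on the log2 scale, from 251 ± 3.87 CPM in siNC to 128 ± 2.63 CPM (SD, n = 3 each), CDC20 had a log2 fold change of −0.88, PLK1 of −0.81 and AURKA of −0.70. BIRC5 (0.14) was 1 of the 2 that rose, a count that was 1 without S1, S3, S17 or S18. With imatinib 20.3% of all genes were called lower and 21.4% higher.

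The pathways that feed into the G1 genes were read from 4 more lists. Of 13 ERK output genes 12 were tested. With imatinib 12 of these 12 fell (median −1.07), with DUSP5 at −1.88, DUSP6 at −1.79, SPRY2 at −1.21 and SPRY4 at −0.92. After knockdown 3 of the 12 fell, SPRY2 (−0.33) and PHLDA1 (−0.27) among them, and 4 rose, with SPRED2 at 0.25 and ETV5 at 0.30 (median 0.08). The 4 higher genes were 2 without S1 or S6. CCND1 fell in both treatments, and how it relates to these genes was not tested.

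FOXO factors and their targets went up with imatinib beside CDKN1B. Of 10 tested, 8 rose and 2 did not pass (median 0.53), with the insulin receptor gene INSR at 0.98, FOXO1 at 0.68, FOXO3 at 0.59 and TXNIP at 0.44. After knockdown 3 rose, SESN3 (0.81), PIK3IP1 (0.61) and FOXO3 (0.32), and 3 fell, FOXO1 (−0.46) among them, with a median of −0.07. The 3 lower genes were 1 without S1, S4 or S6. CDKN1B rose by 0.27 in both treatments, and how it relates to this list was not tested.

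Of the p53-responsive genes, 4 of 22 fell and 6 rose after knockdown (median −0.07), with MDM2 at 0.39, TNFRSF10B at 0.35, AEN at −0.65 and PHLDA3 at −0.98. With imatinib 7 fell and 4 rose (median −0.14), where 20.3% of all genes were called lower and 21.4% higher. GADD45A (−1.36), PLK3 (−1.31), FAS (−1.17) and TNFRSF10B (−0.86) had the smallest p, and PHLDA3 rose by 0.89.

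Wnt feedback and target genes were lower after knockdown in 5 of 9 tested and higher in 1 (median −0.24). CTNNB1, which encodes β-catenin, had a log2 fold change of −1.17, AXIN2 of −0.57 and NKD1 of −0.57, and the secreted antagonist gene DKK4 rose by 0.95. The study chose CTNNB1, AXIN2 and DKK4 on these libraries, so neither the direction of the list nor the rise of DKK4 is independent evidence. Apart from these libraries, the study reported lower AXIN2 and higher DKK4 by quantitative PCR after knockdown. By western blot of whole cell lysates it reported lower total and active β-catenin. Its text gives no direction for the quantitative PCR of CTNNB1 that a figure caption names. The count of 5 was 3 without S1 or S3 and without the low-count filter. With imatinib 4 of 9 rose, CTNNB1 (0.28), AXIN2 (0.66), NKD1 (0.37) and DKK4 (0.43), while CCND1 fell (median 0.17).

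**Figure D4:**
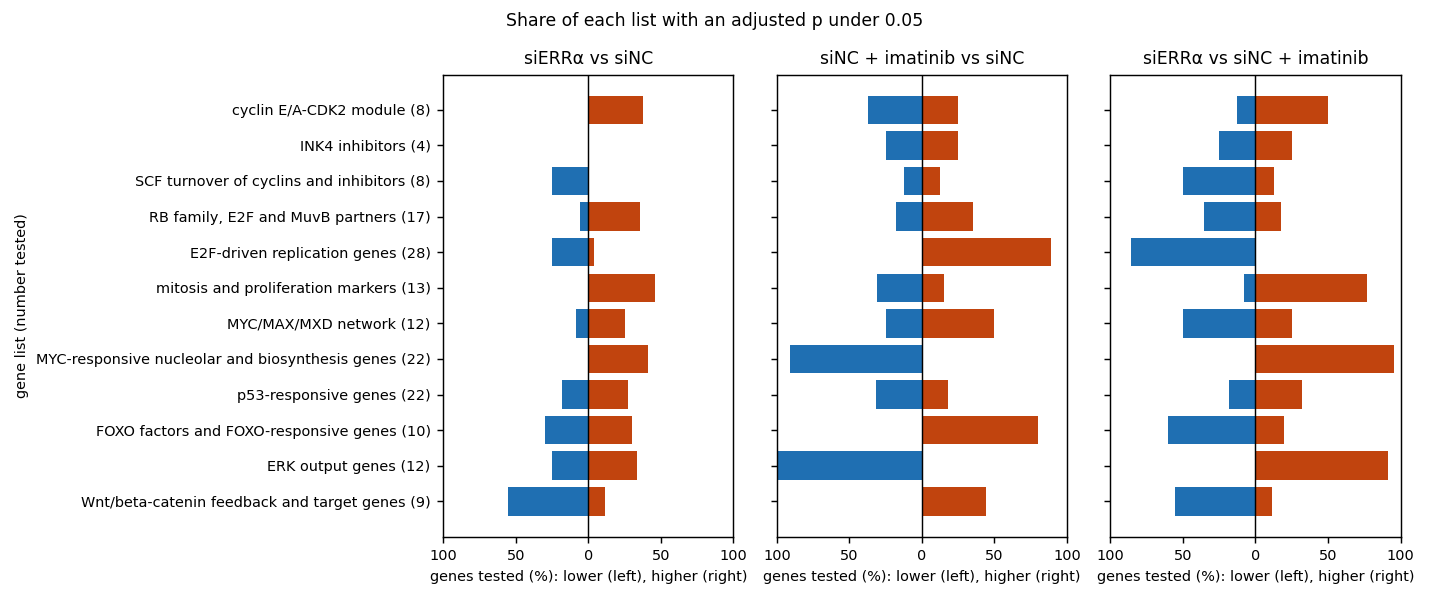
Share of the tested genes of each list (%, number tested in parentheses) called lower (left of 0) or higher (right of 0) in the 3 comparisons. With imatinib 25 of 28 replication genes are higher and 20 of 22 MYC-responsive genes lower, while after knockdown 7 replication genes are lower and 9 MYC-responsive genes higher.

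The genes whose log2 CPM followed each member most closely over the 9 libraries were named among 11594 protein-coding genes, as a description, since the libraries share groups and treatment. For CDK6 they were TEAD1 (Pearson r = 0.995), FBXO42 (0.995) and RASSF2 (0.993). For CCND1 they were NUAK1 (0.988), TMEM87B (0.987) and MLLT11 (0.985), and for RBL2 GOLM1 (0.997), CSTF2T (0.996) and ACSL1 (0.994). TP53INP1, itself a gene of the p53 list, was among the 3 nearest to CDKN1B (0.968), next to SNX19 (0.973) and PDE3B (0.966). The nearest gene was PLEKHA6 for MYC (0.978), HM13 for CCND3 (0.992), CXCL16 for CDKN1C (0.993), CDK18 for CDKN1A (0.988), B9D1 for CDK4 (0.984) and LINS1 for CCND2 (0.971). None of the 10 genes was counted as a candidate for another.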

How the data were processed

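The table holds raw counts per gene symbol that the authors deposited, made from paired-end reads of poly(A) RNA. The submitters' processing notes name STAR 2.7.3a, featureCounts 2.0.1 and GRCh38. The members and gene lists were chosen with earlier results of these data known, and the lists were written from background knowledge. Genes were kept with filterByExpr (minimum count 10, minimum total 15), scaled by TMM and tested with edgeR 4.0.16 (R 4.3.3; robust quasi-likelihood F-test, all 9 libraries in 1 fit, Benjamini-Hochberg over 16976 genes). Genes with an adjusted p under 0.05 were called, and DEGs also had to reach 0.5 in absolute log2 fold change. CPM are TMM-scaled. Shares were compared by exact permutation. DESeq2 1.42.0, limma-voom 3.58.1, other scalings and filters, 6-library fits, a block and leaving out each library were alternatives. The fit was tested on simulated counts. Besides the members, ESRRA, all marker genes and all genes of lists of up to 8 were named, in longer lists the 4 with the smallest p in either comparison with siNC, the 3 genes nearest each member by correlation, and overlapping genes. Gene positions and 3′ UTRs came from GENCODE 44. Members had 115 counts or more in each library, and relative counting error was largest for MYC, the member with the fewest counts. No 2 libraries of a group were near identical (chi-square per degree of freedom 3.77 to 16.5).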

Additional observations from a re-analysis of the deposited data

How the results depend on the processing

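Over the 10 genes and 3 comparisons, 229 of the values under other scalings, tests, filters, sample sets or the block kept their direction and side of the threshold, 8 lost a call and 3 changed sign, and of the values with 1 library left out 244 were kept, 17 lost a call, 3 gained one and 6 changed sign. The sign changes were in values near 0. CDKN1B between siERRα and siNC + imatinib (0.0006) was −0.0083 with upper-quartile factors, −0.0125 with at least 10 counts in every library, −0.0098 in the 6 libraries alone and −0.0392 to 0.042 with 1 library left out, and CCND2 after knockdown (0.02) ranged from −0.0266 to 0.0473 with 1 left out. The share of CCND2 after knockdown against siNC (−1.20 percentage points) was 0.925 with all exons as length and 0.370 with no length scaling. With a further minimum of 0.5 in absolute log2 fold change, 4, 2 and 4 of the 10 genes were called in place of 8 (siERRα against siNC), 5 (siNC + imatinib against siNC) and 7 (siERRα against siNC + imatinib). At 1 or more they were 0, 0 and 1 in edgeR, DESeq2 and limma-voom, and in edgeR also at an unadjusted p under 0.05. The library numbers in the column names did not pair the libraries (correlations of deviations −0.0996 to 0.147, and 4 of 18 cases in which a library was nearest to its own number). With the replicate block the counts were 7, 5 and 6, as CDKN1A after knockdown (adjusted p = 0.0749, edgeR) and CCND2 between both treatments (0.0538) were lost. The median of all genes moved by under 0.02 with other scalings.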
